A study of Mus musculus with 6 samples.

Results

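The nuclear genes for mitochondrial ribosomal proteins were examined in RNA-seq counts of mouse renal primary tubular epithelial cells (PTECs). The genes were taken by symbol, as every row named Mrpl or Mrps with a number and at most 1 letter after it, leaving out 5 rows whose symbols mark pseudogenes and requiring at least 10 counts in all. Of 46095 genes in the table, 77 met the rule. By the known composition of the mitochondrial ribosome, 50 of them encode proteins of the large subunit, Mrps18a and Mrps30 included despite their symbols, and 26 encode proteins of the small subunit. The remaining gene, Mrps36, keeps its ribosomal symbol although its product is known as a component of the 2-oxoglutarate dehydrogenase complex. The filter on low counts kept 76 of the 77 for testing. The gene that did not pass it was Mrpl40, with 3 to 5 counts in each library.

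Cells came from 10-week-old C57 mice, 3 per genotype, and each library is taken as 1 mouse. Mice of the VHL-KO label carried Ksp-Cre for deletion of the floxed alleles of VHL (VHL fl/fl), which encodes the ubiquitin ligase subunit that marks hypoxia-inducible factors for breakdown. Mice of the VHL-KO;SETD2-KO label carried, beside these, floxed alleles of Setd2, a histone H3 lysine methyltransferase, for deletion by the same Cre, so that by the labels no group had VHL intact. Libraries were labelled VHL-KO 1, 2 and 4 and VHL-KO;SETD2-KO 2, 3 and 4, and the comparison asks what loss of Setd2 adds to loss of VHL. Ksp-Cre is driven by the Cdh16 promoter, which is active in tubular epithelium, so other kidney cells in a preparation keep both genes, and the cells were freshly isolated rather than cultured.

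Library totals ran from 11168552 to 17883466 counts, and levels are given as CPM, counts per 1000000 of a TMM-scaled total. The smallest signal taken as detectable, 3 counts, corresponds to 0.168 to 0.269 CPM of the unscaled totals. The counts of the targeted gene go against the labels: Setd2 had 1179, 799 and 132 counts in VHL-KO libraries and 1499, 1019 and 1429 in the VHL-KO;SETD2-KO libraries (log2 fold change 0.52, SE 0.64, adjusted p 0.787 in edgeR). Counts over the whole gene do not show whether the floxed exons were lost, so the groups are given below by their labels. Library VHL-KO 4 stands apart, with 11.3% of its counts from mitochondrial DNA against 25.9% to 36.4% in the other 5 libraries, and the comparisons of the labels are given with and without it. Summed proximal tubule markers were 15703 to 24963 CPM under the VHL-KO label and 6880 to 9580 CPM in VHL-KO;SETD2-KO libraries, and 4 of the 10 markers were lower, or 7 without VHL-KO 4, at an unadjusted p under 0.05 and a fold of at least 1.5, where 4.68% and 7.14% of all genes were. Podocyte markers were 1437 to 2089 against 1971 to 4836 CPM, with 3 of 5 higher, or 4 without VHL-KO 4, where 2.65% and 8.29% of all genes were, and no marker of any list was at 0 in every library. In such bulk samples, fewer cells of a type and less RNA per cell cannot be told apart.

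Mitochondria carry their own ribosome, which translates the few mRNAs of mitochondrial DNA into core subunits of the respiratory chain. Its ribosomal RNAs are transcribed inside the organelle, whereas all of its proteins are encoded in the nucleus, made in the cytosol and imported. Compared with the bacterial ribosome it descends from, it has less RNA and more protein, and many of its proteins have no bacterial counterpart. Proximal tubule cells are dense in mitochondria, since they drive salt and solute reabsorption largely by oxidative phosphorylation.

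Promoters of nuclear genes for mitochondrial proteins are known for motifs of general activators such as NRF1, the ETS factor GABP and YY1. A window from 250 bases before to 50 bases after the transcription start was taken from RefSeq (GRCm38.p6) for the 68 genes that matched, 74 windows in all, and searched on both strands. The NRF1 motif CGCANGCG was in 27.0% of them, against 8.21% of all 32851 windows and 15.3% of the windows of the genes tested here. The ETS motif CCGGAAG, bound by GABP among others, was in 33.8% of them, against 8.86% of all windows and 15.6% of those of tested genes. YY1, searched as AAGATGGCG, had a match in 10.8%, against 1.40% and 2.7%. At least 1 of the 3 was in 58.1% of the windows, against 16.5% of all windows and 29.5% of those of tested genes. The first 3 letters of the YY1 motif can be shared with the end of an ETS match. A match describes the letters only and shows no binding.

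The windows below are shown because they belong to the gene with the lowest p (Mrps18b, at its RefSeq start), the only window with all 3 motifs (Mrps27), and the region that Mrps11 shares with Mrpl46, with matches in capitals on either strand:
Mrps18b promoter, chr17:35916391-35916690, - strand: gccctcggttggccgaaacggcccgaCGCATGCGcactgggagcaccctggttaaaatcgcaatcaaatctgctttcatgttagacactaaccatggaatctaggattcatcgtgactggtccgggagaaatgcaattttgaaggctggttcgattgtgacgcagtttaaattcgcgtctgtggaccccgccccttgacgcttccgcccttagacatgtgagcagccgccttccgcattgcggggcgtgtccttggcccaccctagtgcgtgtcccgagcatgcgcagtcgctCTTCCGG
Mrps27 promoter, chr13:99344536-99344835, + strand: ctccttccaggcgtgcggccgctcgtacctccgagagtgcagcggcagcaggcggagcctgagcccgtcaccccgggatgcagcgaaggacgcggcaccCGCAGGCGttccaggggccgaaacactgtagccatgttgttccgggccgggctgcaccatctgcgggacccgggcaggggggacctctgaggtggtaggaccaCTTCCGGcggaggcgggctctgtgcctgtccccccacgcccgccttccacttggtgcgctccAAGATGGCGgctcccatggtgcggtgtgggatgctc
Mrps11 promoter, chr7:78782881-78783180, + strand: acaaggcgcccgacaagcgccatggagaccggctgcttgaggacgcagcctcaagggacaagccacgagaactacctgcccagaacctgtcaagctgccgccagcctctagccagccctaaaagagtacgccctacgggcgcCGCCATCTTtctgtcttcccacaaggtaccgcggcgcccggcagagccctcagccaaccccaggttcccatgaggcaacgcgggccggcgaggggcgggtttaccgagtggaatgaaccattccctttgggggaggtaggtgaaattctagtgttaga
Mrps11 and Mrpl46 are transcribed away from each other, with RefSeq starts 42 bases apart on chromosome 7, at 78783131 and 78783089. The window of Mrps11 holds 1 YY1 match on the opposite strand, and the window of Mrpl46, which overlaps it by 141 bases, holds none of the 3.

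Base composition is shown because values in VHL-KO 4 are set beside it below. Transcripts of the 76 genes tested ran from 41.4% to 60.6% G and C. A 120-base stretch at the 5′ end of the longest coding exon is given (GENCODE M21, GRCm38) for the 2 genes that were lowest in library VHL-KO 4 relative to VHL-KO 1 and 2, Mrpl1 and Mrpl50, and for the 2 that were highest, Mrpl28 and Mrpl54, with G and C in capitals:
Mrpl1 coding exon, chr5:96223771-96223890, + strand: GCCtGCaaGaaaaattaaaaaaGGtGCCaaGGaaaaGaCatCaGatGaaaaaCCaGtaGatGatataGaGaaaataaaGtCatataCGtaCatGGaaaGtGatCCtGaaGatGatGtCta
Mrpl50 coding exon, chr4:49514458-49514577, - strand: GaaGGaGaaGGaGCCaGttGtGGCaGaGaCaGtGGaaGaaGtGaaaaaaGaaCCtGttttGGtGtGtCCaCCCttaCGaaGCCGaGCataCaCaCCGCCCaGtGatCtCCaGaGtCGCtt
Mrpl28 coding exon, chr17:26123562-26123681, + strand: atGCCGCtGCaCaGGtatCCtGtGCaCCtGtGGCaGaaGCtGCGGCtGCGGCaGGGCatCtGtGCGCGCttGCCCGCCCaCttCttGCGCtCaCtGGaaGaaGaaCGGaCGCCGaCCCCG
Mrpl54 coding exon, chr10:81265688-81265807, - strand: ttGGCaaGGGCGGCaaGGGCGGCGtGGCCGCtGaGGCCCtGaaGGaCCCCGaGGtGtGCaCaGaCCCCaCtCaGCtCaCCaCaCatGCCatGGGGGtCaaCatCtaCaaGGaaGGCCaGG
Whole coding sequences held 41.6% G and C in Mrpl1, 45.9% in Mrpl50, 58.1% in Mrpl28 and 60.7% in Mrpl54. The stretches shown held 34.2%, 51.7%, 65.8% and 65.0% in the same order. That of Mrpl50 is thus richer in G and C than its whole coding sequence.

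Summed over the 77 genes, mitochondrial ribosomal protein transcripts reached 2237.7, 2043.6 and 5653.7 CPM in VHL-KO 1, 2 and 4 and 1741.2, 2058.5 and 1633.6 CPM in VHL-KO;SETD2-KO 2, 3 and 4. VHL-KO 4 held more than any other library, VHL-KO 1 came next, and the ranges of the labels overlapped, since VHL-KO;SETD2-KO 3 lay above VHL-KO 2. The VHL-KO mean was 3312 ± 2031 CPM (SD, n = 3). The VHL-KO;SETD2-KO mean was 1811 ± 221 CPM (SD, n = 3). Without VHL-KO 4 the mean of the remaining controls was 2141 ± 137 CPM (SD, n = 2). As a share of all counts, which is free of TMM scaling, the genes took 0.206%, 0.198% and 0.469% in the VHL-KO libraries and 0.196%, 0.238% and 0.168% in the VHL-KO;SETD2-KO libraries.

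The excess of VHL-KO 4 did not extend to every gene. This library was the highest of the 6 for 62 of the 77 genes and the lowest for 9. Relative to the mean log2 CPM of VHL-KO 1 and 2 (prior count of 2), its log2 ratios had a median of 1.15 and an SD of 1.19 over the genes, and ran from -2.80 for Mrpl1, which encodes the protein of the L1 stalk, to 2.91 for Mrpl54. The VHL-KO;SETD2-KO libraries kept closer to VHL-KO 1 and 2, with median log2 ratios of -0.29 in replicate 2, -0.06 in replicate 3 and -0.39 in replicate 4. Replicate 4 under that label was the lowest library for 50 of the 77 genes.

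**Figure D1:**
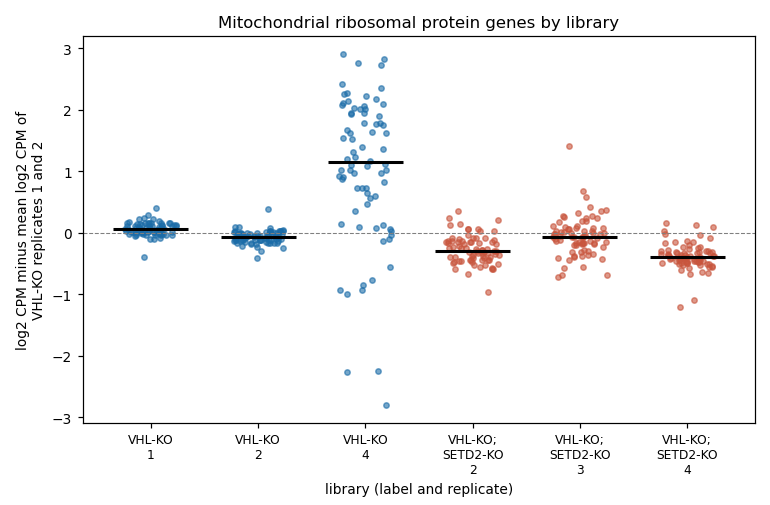
Log2 CPM (prior count of 2) minus the mean log2 CPM of VHL-KO replicates 1 and 2, for each gene tested (points) in each of the 6 libraries, with the median as a black line. VHL-KO 4 spreads from -2.80 to 2.91 with a median of 1.15, whereas the VHL-KO;SETD2-KO medians sit between -0.39 and -0.06.

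Between the labels, the genes lay on the low side under VHL-KO;SETD2-KO, but no single one passed correction. Log2 fold changes (VHL-KO;SETD2-KO over VHL-KO, all 6 libraries) had a median of -0.69 over the 76 genes tested, with quartiles of -1.16 and -0.37, and 71 of the 76 were below 0. Over all 14611 genes tested the median was 0.01 and 49.5% were below 0. At an adjusted p under 0.05 in edgeR's quasi-likelihood test 0 of the 76 were called, where 0.00684% of all genes were, and the lowest adjusted p was 0.625. DESeq2 also called 0, where it called 0.194% of the 25307 genes in its fit, which had no filter on low counts. It gave most of the 77 genes no adjusted p, so these could not be called. Among them were Mrpl14 (DESeq2 unadjusted p 0.0071) and Mrps28 (DESeq2 unadjusted p 0.0147). At an unadjusted p under 0.05 with at least a 1.5-fold change, edgeR gave 6 genes as lower, or 7.89%, beside 4.68% of all genes. DESeq2 gave 19 of the 77, or 24.7%, beside 4.44% of its 25307 genes. Sparse genes, which can hardly pass, lower that share, so it cannot be set against the edgeR share. As higher, edgeR gave 0, beside 2.65% of all genes. For 26 genes, or 34.2%, every VHL-KO;SETD2-KO library was below every VHL-KO library, which held for 11.0% of all genes. The opposite order, met by 9.62% of all genes, was met by 0 of the 76. The count of 6 depended on single libraries: it was 20 without VHL-KO 1, 25 without VHL-KO 2, 0 without VHL-KO;SETD2-KO 2 or 4 and 1 without VHL-KO;SETD2-KO 3. The count of 26 was 42 without VHL-KO 2 and 53 without VHL-KO;SETD2-KO 3. Shares of all genes are not given for these fits, so the counts show only how far the result moved with 1 library. A lack of overlap is also easier to meet with 1 library fewer. Its share over all genes on the lower side was 21.4% without VHL-KO 4, beside 11.0% with all libraries. The counts of 42 and 53 therefore cannot be read as a stronger result.

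Leaving out VHL-KO 4 moved the median of the 76 genes to -0.26, with 68 of them below 0, where the median of all genes was 0.04 and 46.9% were below 0. The largest fall was then -1.01 and the largest rise 0.70. Without that library 15 of the genes were lower at an unadjusted p under 0.05, or 19.7%, beside 10.6% of all genes, but only Mrps18b and Mrpl16 also reached a 1.5-fold change, or 2.63%, beside 7.14% of all genes. In edgeR the adjusted p stayed above 0.05 for all 76, with Mrpl16 lowest at 0.122. DESeq2 called 0 where it called 4.89% of 24667 genes with no filter on low counts. Any gene it left without an adjusted p could not be called. For 34 genes, or 44.7%, every VHL-KO;SETD2-KO library was then below both remaining VHL-KO libraries, beside 21.4% of all genes. Mrpl15, Mrpl52 and Mrps6 showed the opposite order, met by 20.1% of all genes. In all, 13 genes changed direction when this 1 library was left out: Mrpl1, Mrpl47, Mrpl50, Mrps18c and Mrps33 from above to below 0, and Mrpl15, Mrpl33, Mrpl52, Mrps6, Mrps10, Mrps11, Mrps15 and Mrps24 from below to above.

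**Figure D2:**
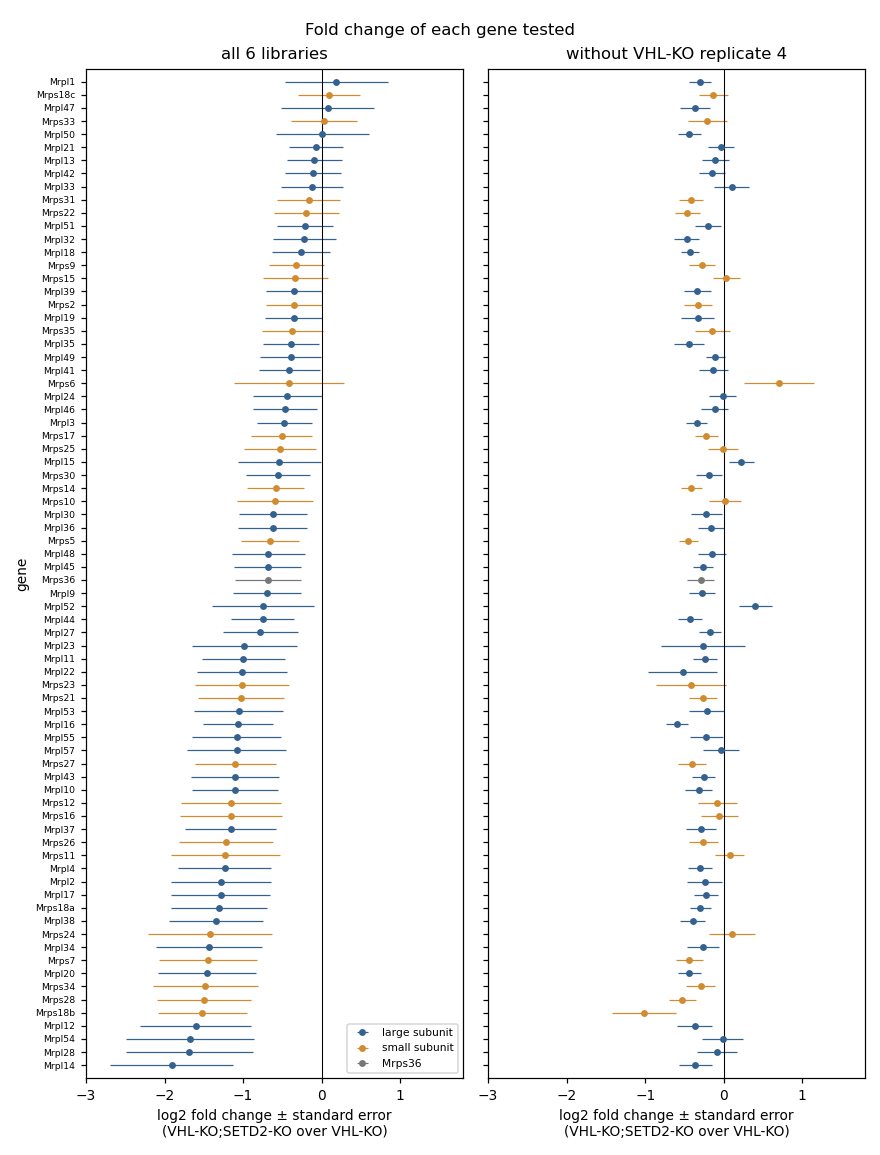
Log2 fold change with its standard error for the 76 genes tested, from all 6 libraries (left) and without VHL-KO replicate 4 (right), ordered by the left panel and coloured by subunit. On the left the genes fan out from -1.91 to 0.19, and on the right 68 of the 76 lie below 0, with Mrps18b at -1.01 and Mrps6 at 0.70 as the ends.

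The 6 genes that passed the unadjusted threshold were led by Mrps18b, 1 of 3 mitochondrial relatives of a single bacterial small-subunit protein. Its level was 2.24, 1.57 and 4.40 CPM in VHL-KO 1, 2 and 4 and 0.903, 1.13 and 0.815 CPM in VHL-KO;SETD2-KO 2, 3 and 4. All VHL-KO libraries were above all VHL-KO;SETD2-KO libraries, with a log2 fold change of -1.52 (SE 0.57, unadjusted p 0.0276) that was still -1.01 (SE 0.40, unadjusted p 0.0454) without VHL-KO 4. These values rest on 13 to 47 counts per library. In addition, 56.0% of the 50-base stretches of its transcripts occur in another gene, mostly Gm16279, which overlaps it, and how shared reads were counted is not given in the sources used here. In GENCODE M21, Mrps18b lies on the minus strand of chr17:35910379-35916389, so the window shown, set by a RefSeq start further upstream, lies outside that interval.

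Mrpl16, a large-subunit protein near the peptidyl transferase centre (chr19:11770391-11774960, plus strand), was at 40.9, 39.4 and 86.4 CPM under the VHL-KO label and 25.3, 24.5 and 30.1 CPM in VHL-KO;SETD2-KO libraries. Its labels did not overlap with or without VHL-KO 4, and VHL-KO 1 and 2 were close to each other. The log2 fold change was -1.06 (SE 0.44, unadjusted p 0.0433), and -0.60 (SE 0.14, unadjusted p 0.00623) without VHL-KO 4, the lowest p of any of the genes in that fit. No 50-base stretch of its transcripts occurs in another gene.

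Mrps28, a small-subunit protein (chr3:8802146-8923918, minus strand), was at 16.0, 15.8 and 61.9 CPM against 11.1, 12.2 and 9.97 CPM. VHL-KO 4 was far above the other controls, which in turn were above all libraries of the other label. The log2 fold change of -1.50 (SE 0.60, unadjusted p 0.0364) became -0.53 (SE 0.17, unadjusted p 0.0201) without it. Mrpl20, needed early in assembly of the large subunit in bacteria (chr4:155802878-155809975, plus strand), was at 62.1, 54.7 and 239 CPM against 48.5, 39.1 and 41.9 CPM. The labels did not overlap here either, and the log2 fold change was -1.46 (SE 0.62, unadjusted p 0.0466), or -0.44 (SE 0.15, unadjusted p 0.0245) without VHL-KO 4. Mrps7, a protein of the head of the small subunit (chr11:115603925-115608036, plus strand), had 54.2, 50.9 and 213 CPM against 35.9, 46.9 and 33.9 CPM, again without overlap (log2 fold change -1.45, SE 0.62, unadjusted p 0.0481; -0.44 without VHL-KO 4).

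Mrpl14, which sits at the interface between the subunits (chr17:45686322-45698495, plus strand), had the largest fall, -1.91 (SE 0.79, unadjusted p 0.0406), but its labels overlapped. It was at 22.5, 19.1 and 141 CPM under VHL-KO and 15.2, 19.8 and 13.5 CPM under VHL-KO;SETD2-KO, so that replicate 3 of the latter lay above VHL-KO 2. Without VHL-KO 4 its log2 fold change was -0.36 (SE 0.21, unadjusted p 0.132). Mrpl12, whose copies form the flexible stalk that recruits translation factors, followed the same order, with 114, 90.4 and 517 CPM against 72.3, 100.3 and 64.6 CPM. It had -1.60 (SE 0.71, unadjusted p 0.0522) with all libraries and -0.37 (SE 0.23, unadjusted p 0.155) without VHL-KO 4. Mrpl38, a protein of the central protuberance that mitochondria added to the bacterial plan, had 48.9, 51.2 and 191 CPM against 33.3, 44.3 and 36.9 CPM. Its labels did not overlap, with -1.34 (SE 0.60, unadjusted p 0.0549), or -0.39 (SE 0.16, unadjusted p 0.0476) without VHL-KO 4.

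The other large falls and all of the rises rested on VHL-KO 4. Mrpl28 had 32.9, 30.9 and 227 CPM against 25.7, 40.9 and 24.1 CPM, and its log2 fold change moved from -1.68 (SE 0.81) to -0.08 (SE 0.26) without that library. Mrpl54 had 19.3, 15.9 and 133 CPM against 16.3, 22.9 and 13.5 CPM, and moved from -1.67 (SE 0.82) to -0.01 (SE 0.26). At the other end, Mrpl1 was at 20.2, 23.0 and 2.99 CPM against 17.3, 17.6 and 17.9 CPM, so that VHL-KO 4 was the low library. Its log2 fold change was 0.19 (SE 0.66) with VHL-KO 4 and -0.30 (SE 0.14) without. Mrpl50 had a like order, 84.4, 76.1 and 16.6 CPM against 53.5, 66.4 and 58.4 CPM, and went from 0.01 (SE 0.59) to -0.44 (SE 0.15, unadjusted p 0.0238). Mrps18c, Mrpl47 and Mrps33, the remaining largest rises, were at 0.09 (SE 0.39), 0.08 (SE 0.59) and 0.03 (SE 0.42) with all libraries and did not pass the test. All 3 were below 0 without VHL-KO 4.

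Mrps22, Mrps31 and Mrpl32 were, like Mrpl50, at their lowest in VHL-KO 4, and the other controls lay above every VHL-KO;SETD2-KO library. Mrps22, a small-subunit protein with no bacterial counterpart, was at 19.4, 17.4 and 9.17 CPM against 12.3, 13.6 and 14.2 CPM, with a log2 fold change of -0.20 (SE 0.41), or -0.46 (SE 0.16, unadjusted p 0.0253) without VHL-KO 4. Mrps31 was at 26.9, 22.1 and 12.8 CPM against 18.5, 18.9 and 17.7 CPM, and Mrpl32, whose precursor is cut by an inner membrane protease before assembly, was at 27.6, 22.1 and 13.0 CPM against 19.2, 16.8 and 17.9 CPM. Without VHL-KO 4 these 2 had -0.42 (SE 0.15) and -0.47 (SE 0.16), and without VHL-KO 1 all 3 turned above 0.

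The genes on the opposite side without VHL-KO 4 were Mrpl15, Mrpl52 and Mrps6. Mrps6 had 198, 150 and 626 counts against 266, 616 and 231 counts, or 13.9 and 58.5 CPM in VHL-KO 2 and 4 against 14.1, 34.7 and 14.5 CPM. Its log2 fold change of 0.70 (SE 0.44) without VHL-KO 4 came with 1 high library, VHL-KO;SETD2-KO 3. Exons of Gm49711 and Slc5a3 on the same strand overlap 19.9% of its exon bases. In addition, 32.2% of its 50-base stretches occur in Gm49711, so its level is uncertain. Mrpl52 was at 15.4, 14.9 and 71.1 CPM against 19.3, 24.4 and 16.5 CPM, and Mrpl15, a core protein of the large subunit, at 18.4, 17.9 and 56.6 CPM against 20.1, 24.3 and 19.5 CPM. None of the 3 passed an unadjusted p of 0.05 in either fit, with log2 fold changes of 0.40 (SE 0.21) for Mrpl52 and 0.22 (SE 0.16) for Mrpl15 without VHL-KO 4.

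The excess of VHL-KO 4 was larger in genes with more G and C in their transcripts, with exceptions. Mrpl57 and Mrpl50, both at 42.3% G and C, had log2 excesses of 2.07 and -2.27. Across the 76 genes, which share that library and are not independent replicates, G and C content and the log2 excess of VHL-KO 4 over VHL-KO 1 and 2 had Pearson's r 0.75 and Spearman's rho 0.75. Over 14129 tested genes with an annotated transcript the same values were 0.72 and 0.74, close to those of the ribosomal genes. G and C content and the log2 fold change between the labels had r -0.74 in the 76 genes with all libraries and 0.11 without VHL-KO 4. Over the 14129 genes these values were -0.42 and 0.14. In the 25 genes lowest in G and C the median excess was 0.08 and the median log2 fold change -0.36. In the middle 26 these were 1.07 and -0.69, and in the highest 25 they were 2.02 and -1.23. Without VHL-KO 4 the median log2 fold changes of the 3 parts were close to each other, at -0.29, -0.26 and -0.24.

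All genes in the same ranges of G and C content had a median excess in VHL-KO 4 of -1.68, 0.05 and 1.39, lower in each range than that of the ribosomal genes. Their median log2 fold changes were 0.32, -0.02 and -0.49 with all libraries and -0.02, 0.03 and 0.09 without VHL-KO 4. A smooth trend on transcript length and G and C content was then taken out. The median excess of the ribosomal genes in VHL-KO 4 was 0.89 after this, where that of all genes was 0.04. The order by G and C content was now the reverse of that before. The median was 1.39 in the 25 genes lowest in G and C, 0.91 in the middle 26 and 0.52 in the highest 25. With the same trend as an offset in the test, 18 of the 76 were lower at an unadjusted p, or 23.7%, beside 8.99% of all genes. The median log2 fold change of the 76 was -0.61 with the offset. In the same 3 parts, from lowest to highest G and C, it was -0.95, -0.63 and -0.57. The offset thus turned the order of the parts round, so its values cannot be read as a fall free of base composition and length. The transcripts were also short, with a median of 1051.5 bases against 2103 for all genes. The part of base composition and length in these differences was not tested.

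**Figure D3:**
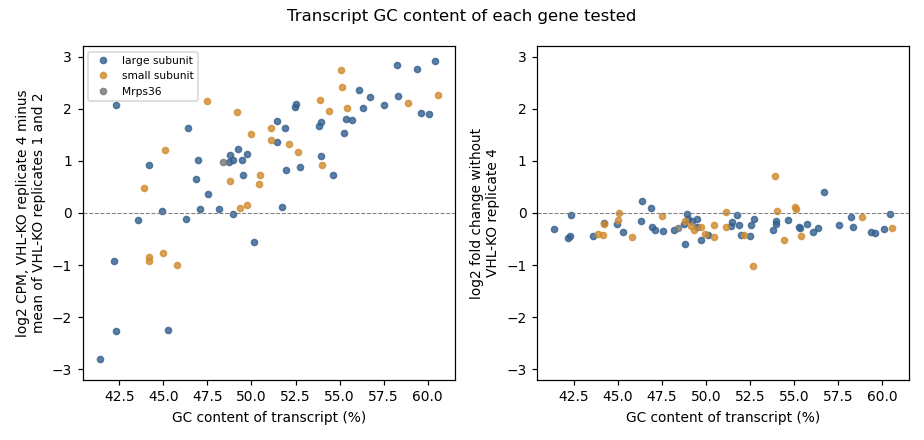
G and C content of the transcripts (percent, horizontal axis) against the log2 excess of VHL-KO replicate 4 over VHL-KO replicates 1 and 2 (left) and against the log2 fold change without VHL-KO replicate 4 (right), 1 point per gene. The left points climb from -2.80 at 41.4% to 2.91 at 60.4%, and the right points lie flat, with a Pearson's r of 0.11.

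The adjoining genes Mrps11 and Mrpl46, chosen after their values were seen, differed in VHL-KO 4 although they share a start region. Mrps11, on the platform of the small subunit, was at 13.0, 11.8 and 67.3 CPM under VHL-KO and 11.7, 15.0 and 12.7 CPM under VHL-KO;SETD2-KO. Mrpl46, in the central protuberance, was at 22.0, 17.2 and 35.9 CPM and at 17.5, 20.0 and 17.0 CPM. VHL-KO 4 exceeded the other controls by 2.43 on the log2 scale for Mrps11 and by 0.88 for Mrpl46, whose transcripts held 55.1% and 52.7% G and C. The labels overlapped for both, with log2 fold changes of -1.22 (SE 0.69) and -0.46 (SE 0.41), or 0.07 (SE 0.18) and -0.12 (SE 0.18) without VHL-KO 4.

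By subunit and by descent the genes had like medians. Large-subunit genes had a median log2 fold change of -0.70 over the 49 tested, and small-subunit genes -0.63 over 26. Without VHL-KO 4 these were -0.25 and -0.26. The 46 genes with a bacterial counterpart had a median of -0.68 and the 29 tested genes classed as mitochondria-specific had -0.69, against -0.26 and -0.25 without VHL-KO 4. The latter class includes Mrps18a and Mrps18b, although both are relatives of a bacterial protein whose place Mrps18c takes. Whether the groups differ was not tested. Mrps36, the gene with no place on the ribosome, was at 25.2, 19.4 and 43.7 CPM against 17.5, 20.1 and 17.2 CPM, with -0.69 (SE 0.42), or -0.29 (SE 0.18) without VHL-KO 4.

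Genes for functional sites of the large subunit were below 0 with all libraries, Mrpl47 excepted, and none passed correction. The stalk genes Mrpl10, Mrpl11 and Mrpl12 had a median of -1.10, or -0.32 without VHL-KO 4, and the labels did not overlap for Mrpl10 (49.3, 41.6 and 145 CPM against 38.2, 40.5 and 30.9 CPM) and Mrpl11 (24.6, 23.7 and 74.5 CPM against 19.3, 23.1 and 19.1 CPM). Around the peptidyl transferase centre, where peptide bonds are made, Mrpl2, Mrpl3 and Mrpl16 had a median of -1.06, or -0.35 without VHL-KO 4. Mrpl3 was at 27.0, 28.1 and 35.4 CPM against 23.2, 21.0 and 21.1 CPM, without overlap, with -0.47 (SE 0.35), or -0.35 (SE 0.13, unadjusted p 0.0391) without VHL-KO 4.

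At the tunnel exit, where new chains emerge beside the inner membrane, the 6 genes Mrpl17, Mrpl22, Mrpl23, Mrpl24, Mrpl45 and Mrpl47 had a median of -0.84, or -0.26 without VHL-KO 4. Mrpl45, which tethers the ribosome to that membrane, was at 29.9, 29.5 and 60.6 CPM against 24.4, 26.4 and 23.6 CPM, with no overlap and -0.69 (SE 0.42), or -0.26 (SE 0.13) without VHL-KO 4. In the central protuberance, Mrpl18, Mrpl38, Mrpl46 and Mrpl48 had a median of -0.57, or -0.27 without VHL-KO 4. Mrpl18 was not raised in VHL-KO 4, with 45.9, 43.1 and 30.3 CPM against 32.4, 33.5 and 33.6 CPM. Its labels overlap because VHL-KO 4 is the lowest of the 6, and its log2 fold change was -0.26 (SE 0.36), or -0.43 (SE 0.12, unadjusted p 0.0110) without that library. The 3 decoding and mRNA entry genes of the small subunit, Mrps5, Mrps12 and Mrps24, had a median of -1.15, or -0.08 without VHL-KO 4.

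These 3 genes differed in what was left without VHL-KO 4. Mrps5 was at 35.8, 36.5 and 53.5 CPM against 25.4, 26.5 and 27.7 CPM, with no overlap and the second lowest p without VHL-KO 4 (-0.45, SE 0.12, unadjusted p 0.0103). Mrps24 was at 19.7, 20.4 and 134 CPM against 18.8, 30.2 and 15.7 CPM, and turned from -1.42 (SE 0.79) to 0.11 (SE 0.29) without that library. Mrps12, a protein of the decoding centre, went from -1.15 (SE 0.64) to -0.08 (SE 0.25).

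The Mrps18 relatives had different values as well. Mrps18a, a large-subunit protein, was at 34.0, 30.3 and 130.4 CPM against 26.3, 28.0 and 24.4 CPM, without overlap (-1.31, SE 0.61; -0.30, SE 0.14, without VHL-KO 4). Mrps18c, the member that takes the bacterial protein's place, was at 18.1, 15.4 and 9.73 CPM against 17.1, 15.7 and 13.3 CPM, with overlapping labels. Mrps18b, described above, was the only one of the 3 with a fall of over 2-fold both with and without VHL-KO 4. Their transcripts held 56.3%, 45.0% and 52.6% G and C for Mrps18a, Mrps18c and Mrps18b.

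Levels per kilobase of transcript spanned a wide range, although the proteins are known to be present in the ribosome in near-equal copies. The median over the 77 genes was 27.0 CPM per kb, averaged over the 6 libraries, and 45 genes were within 2-fold of it. Over the 5 libraries without VHL-KO 4 the median was 21.1 CPM per kb, with 52 genes within 2-fold. The highest over 6 libraries were Mrps21 at 177, Mrpl20 at 164, Mrpl12 at 121 and Mrpl4 at 82.6 CPM per kb. Mrpl12 is the one among them whose protein is present in several copies on each ribosome. For these 4 genes VHL-KO 4 was at 433, 484, 393 and 226 CPM per kb. Without it the order was Mrps21 at 125, Mrpl20 at 99.7, Mrpl42 at 76.6, Mrpl12 at 67.0 and Mrpl4 at 53.9 CPM per kb, so that Mrpl42 came ahead of Mrpl12 and Mrpl4. Mrpl20 exceeded Mrps21 in VHL-KO 4 but in no other library: in VHL-KO;SETD2-KO 2, 3 and 4 Mrps21 was at 109.6, 140.2 and 98.8 and Mrpl20 at 98.1, 79.2 and 84.8 CPM per kb. Mrpl42, the fifth over 6 libraries, was at 83.9, 78.4 and 75.3 CPM per kb under VHL-KO and 72.8, 85.4 and 62.3 under VHL-KO;SETD2-KO, a spread narrower than that of Mrpl12, at 86.3, 68.7 and 393 and at 54.9, 76.2 and 49.1.

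At the low end 9 genes were under 5 CPM per kb, as were 9 without VHL-KO 4. The lowest were Mrpl40 at 0.261, Mrpl23 at 1.27 and Mrps18b at 2.29 CPM per kb, with Mrps23 at 2.31 not set apart from Mrps18b beyond the spread over libraries. Mrpl40 lay at the detection limit, with 3, 5 and 3 counts against 4, 4 and 4. Mrpl23, a tunnel exit protein, had 15, 5 and 23 counts against 12, 12 and 7. Of the 50-base stretches of Mrpl23 transcripts, 51.7% occur elsewhere in the transcriptome, mostly in Mrpl23-ps1, while those of Mrps23 occur in no other gene. Shared sequence is also high for Mrpl53, where it covers the whole transcript, Mrps25, at 73.9%, and Mrps34, at 52.4%, so their levels are uncertain to the extent that the counting split or dropped such reads. Exons of Mrpl14 overlap Tmem63b, those of Mrps7 overlap Gga3 and Mif4gd, those of Mrpl12 overlap Gm16755, and Mrps11 and Mrpl46 overlap each other, so reads there may be shared where strand was not used in counting.

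**Figure D4:**
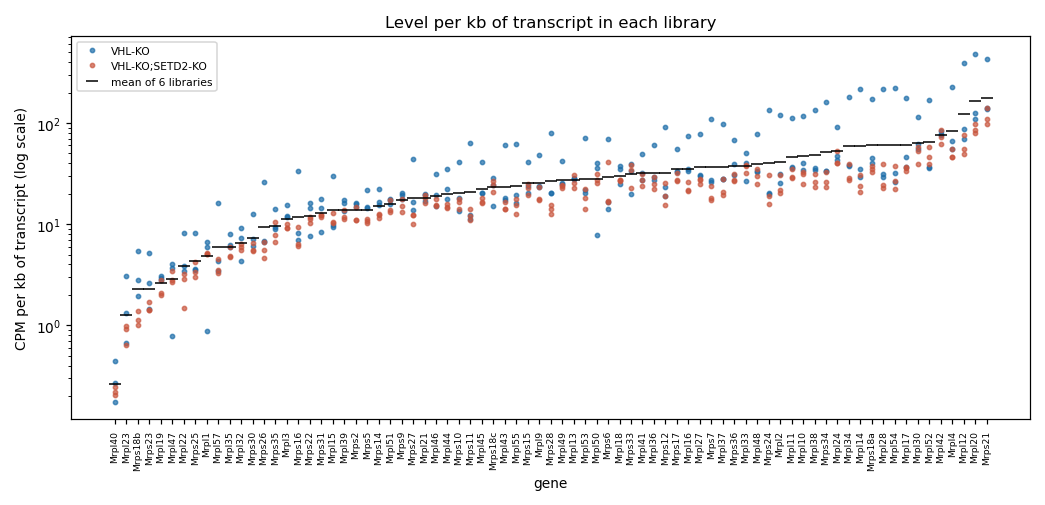
CPM per kb of transcript (log axis) for each of the 77 genes in each library (points, coloured by label) and as the mean of the 6 libraries (black bars), in order of the mean. Means run from 0.261 for Mrpl40 to 177 for Mrps21, and the highest blue point of most genes is VHL-KO replicate 4.

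Other genes of mitochondrial translation had medians below 0 as well, and few passed the unadjusted threshold. The 6 tested mitoribosome proteins with other symbols, such as Gadd45gip1 and Ict1, had a median log2 fold change of -0.87, or -0.06 without VHL-KO 4, and 0 of the 6 passed in either fit. Gadd45gip1, with the lowest p of these, was at 14.9, 16.1 and 97.2 CPM against 12.8, 19.0 and 12.5 CPM. Mitochondrial translation factors had a median of -0.34, or -0.36 without VHL-KO 4, over 10 genes, of which 0 passed with all libraries and 1, Gfm1 (-0.64, unadjusted p 0.00216), without VHL-KO 4. Tufm, the elongation factor that brings aminoacyl-tRNA to the ribosome, was at 42.0, 42.7 and 140.4 CPM against 28.3, 34.9 and 30.7 CPM, with -1.26 (unadjusted p 0.0521), or -0.44 (unadjusted p 0.0203) without VHL-KO 4.

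Of 17 mitochondrial aminoacyl-tRNA synthetases, which charge the organelle's tRNAs, 1 was lower and 0 were higher, with a median of -0.65, or -0.33 without VHL-KO 4. Without VHL-KO 4, Lars2 (-0.61) and Rars2 (-0.75) were among those that passed as lower. The gene that passed with all libraries was Fars2, the phenylalanine enzyme, at 35.4, 31.5 and 125 CPM against 23.9, 23.7 and 20.8 CPM (-1.49, unadjusted p 0.0351; -0.56, unadjusted p 0.00749 but under 1.5-fold, without VHL-KO 4). Ribosome assembly factors, 19 tested, had a median of -0.52, or -0.15 without VHL-KO 4, and 0 passed in either fit. Mtg1, a GTPase of large-subunit assembly, had the lowest p among them, at 16.4, 16.6 and 43.6 CPM against 12.1, 13.7 and 11.0 CPM. Genes of mitochondrial DNA transcription and RNA stability had a median of 0.07, or -0.32 without VHL-KO 4, and regulators of mitochondrial biogenesis 0.00, or -0.22, with 0 genes passing in either list with all libraries. Without VHL-KO 4, Myc passed as lower among the regulators (-0.66, unadjusted p 0.0499).

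The 3 gene groups most like the mitochondrial ribosomal proteins were set beside them. Cytosolic ribosomal proteins had a median of -0.44 over 79 tested genes, with 58 below 0, and a median of 0.22 with 8 below 0 without VHL-KO 4. The mitochondrial ribosomal genes stayed on the low side, at -0.26 with 68 of 76 below 0. Nuclear-encoded respiratory chain subunits had a median of -1.04 over 75 genes, or -0.15 with 61 below 0 without VHL-KO 4. The 13 mRNAs of mitochondrial DNA had a median of 0.04, or -0.30 with 12 below 0 without VHL-KO 4. The differences between these lists were not tested, and they share the same 6 libraries. Median excesses in VHL-KO 4 were 1.42 for the cytosolic ribosomal genes, 1.78 for the respiratory chain genes and -1.42 for the mitochondrial mRNAs, whose median G and C content was 43.3%.

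**Figure D5:**
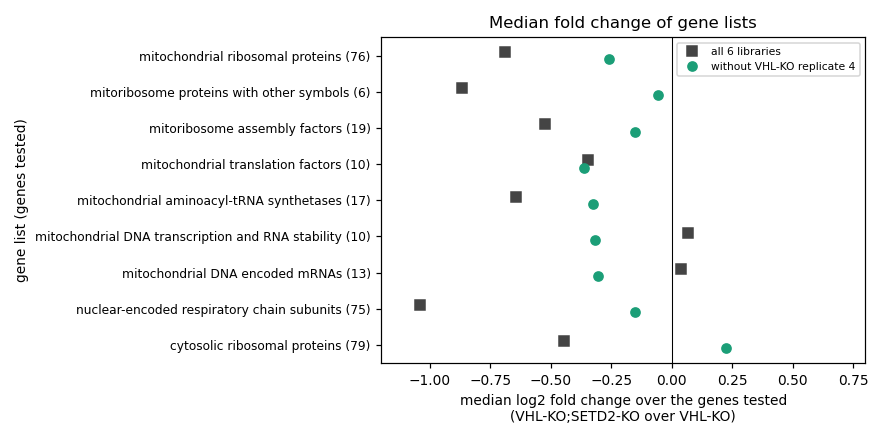
Median log2 fold change (VHL-KO;SETD2-KO over VHL-KO) over the genes tested of each list, with all 6 libraries (squares) and without VHL-KO replicate 4 (circles). Without that library the mitochondrial ribosomal proteins are at -0.26 and the cytosolic ribosomal proteins at 0.22.

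Marker levels of some cell types differed between the labels beside these values. Proximal tubule markers had a median log2 fold change of -1.03, and of -0.90 without VHL-KO 4, further below 0 than the -0.26 of the ribosomal genes in the same fit. Within the VHL-KO;SETD2-KO label, replicate 3 had the most proximal tubule marker signal, 9580 CPM against 6880 in replicate 2 and 8228 in replicate 4, and the most mitochondrial ribosomal signal, 2058.5 CPM. It was the highest of these libraries as well for thick limb and distal tubule markers, 3530 CPM against 1329 and 1607. The same held for collecting duct markers, 145 CPM against 46.9 and 52.0. Replicate 3 was also the lowest of these libraries for podocyte markers, 1971 CPM against 4836 and 4296, and for endothelial markers, 1652 against 4988 and 4263. Macrophage markers were lowest there too, 118 CPM against 238 and 257. Of the proximal tubule markers, Slc22a6 was lowest in replicate 3, Lrp2 was highest in replicate 4, and the others were highest in replicate 3. Collecting duct markers (14.2 to 315 CPM against 46.9 to 145), macrophage markers (118 to 674 against 118 to 257), fibroblast markers (77.1 to 286 against 74.5 to 217) and thick limb and distal tubule markers (1113 to 4763 against 1329 to 3530) overlapped between the labels. VHL-KO 4 was the highest control library for each of these 4 lists and for proximal tubule and podocyte markers, and the lowest for endothelial markers. Single genes weighed on these sums. Slc34a1 was at 14206 CPM in VHL-KO 4 against 4979 and 4759 in VHL-KO 1 and 2, but Lrp2 was at 940 against 3384 and 3351. Of the thick limb markers, Slc12a1 was at 79.2 CPM against 125 and 305. The part of cell composition in the ribosomal gene values was not tested.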

How the data were processed

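Raw counts per gene symbol had been deposited by the authors for 6 libraries (paired 150-base ends from directional kits, TRIzol RNA). The submitters' processing notes name HISAT2 2.0.4 and GRCm38. The counting program, its annotation and its use of strand are not given in the sources used here. The deposited counts were tested with edgeR 4.0.16 (R 4.3.3): TMM factors, filterByExpr (14611 of 46095 genes), quasi-likelihood test with the label as only factor, Benjamini-Hochberg adjustment over all genes. Genes count as lower or higher where the unadjusted p was under 0.05 and the fold at least 1.5. Alternatives used DESeq2 1.42.0 and limma 3.58.1, other scalings and filters, an offset for transcript length and G and C content (natural splines, 5 df), a replicate block and each library left out. The tests and the offset were tested on simulated data. The labels give replicates as numbers only, and each library is taken as 1 mouse because the study gives 3 mice per group. CPM used TMM-scaled totals. Each gene's length and G and C content are medians over its protein-coding GENCODE M21 transcripts, by symbol. Shared sequence counts 50-base stretches found in transcripts of other genes.

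The genes and lists were chosen with earlier results of these data known. Genes named singly are the 8 with the lowest unadjusted p, the 4 largest falls and rises, the 4 highest and 3 lowest levels per kb, the site groups, the Mrps18 relatives, those that turned direction without 1 library and, in other lists, the lowest p. Others were chosen after their values were seen. Intervals and floors cover counting error only. The labels do not say whether shared replicate numbers 2 and 4 pair the mice, so the main test had no block. Correlations of deviations were 0.165 and -0.319. The value for number 4 includes VHL-KO 4, which stands apart, so they cannot decide this. Per-sample columns not used numbered 0.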

Additional observations from a re-analysis of the deposited data

How the results depend on the processing

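No alternative called a gene after adjustment, although DESeq2 gave most of the genes no adjusted p. The median log2 fold change stayed below 0 in all, from -0.87 to -0.26 over the single libraries left out. The count of genes lower at an unadjusted p (6) was 19 with DESeq2, 1 with limma-voom, 12 with no filter on low counts and 18 with the length and G and C offset, and ran from 0 to 25 over the libraries left out. The count without overlap on the lower side (26) ran from 27 to 53 over them (53 without VHL-KO;SETD2-KO 3, 42 without VHL-KO 2), and that on the higher side (0) from 0 to 3. Without VHL-KO;SETD2-KO 2 or 4 the lower count was 0, without VHL-KO 1 it was 20 and without VHL-KO 2 it was 25. Shares of all genes are given above for DESeq2, over its unfiltered genes, and for the offset and the fit without VHL-KO 4. They are not given for the other alternatives, whose counts cannot be set against all genes. Counts without overlap are also easier to reach with 1 library fewer.

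With a replicate block on the shared numbers, 0 genes were lower at an unadjusted p and the median was -0.84. The labels do not say whether these numbers pair the samples. Only numbers 2 and 4 are shared, so VHL-KO 1 and VHL-KO;SETD2-KO 3 add nothing to the label difference in that fit. So few libraries could hardly give a low p, and the count of 0 cannot decide anything. For Mrps18b the standard error was 1.20 with the block and 0.57 without it. No count of overlap exists for the block.

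After the data were seen, leaving out VHL-KO 4 was joined to other choices. With DESeq2, 1 gene was lower and 3 genes did not overlap on the higher side, and with the offset these were 1 and 2. Of 335 values of 21 named genes, 312 kept their direction and 23 in 5 genes did not. With the offset Mrps33 was at -0.32, Mrpl47 at -0.25, Mrps18c at -0.21 and Mrpl1 at -0.16, and with DESeq2 size factors in edgeR Mrps33 was at -0.014. Without VHL-KO 4 in DESeq2 they were at -0.22, -0.38, -0.14 and -0.31 and Mrps11 at 0.064, and with the offset at -0.11, -0.38, -0.043, -0.28 and 0.025. Over the libraries left out Mrps33 ran from -0.21 to 0.26, Mrpl47 from -0.37 to 0.42, Mrps18c from -0.13 to 0.30, Mrpl1 from -0.30 to 0.59 and Mrps11 from -1.59 to 0.074. Beside these genes, Mrpl21 turned without VHL-KO;SETD2-KO 2, Mrpl50 without VHL-KO;SETD2-KO 3 and Mrpl13 and Mrpl42 without VHL-KO;SETD2-KO 4. The offset turned 9 genes, the 4 above and Mrpl21, Mrpl50, Mrpl52, Mrps6 and Mrps15, DESeq2 and its size factors in edgeR each turned Mrpl50, and the block turned Mrpl32, Mrps22 and Mrps31. The cause of these turns was not tested. Depth limits Mrpl40, Mrpl23, Mrps23 and Mrps18b, the genes with under 50 counts in every library.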
